A study of Mus musculus with 6 samples.

Results

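The ATP-binding cassette (ABC) transporters were examined on 6 Agilent mouse arrays of gene expression in a single color, 3 hybridized with RNA of esophageal organoids and 3 with RNA of stomach organoids. Members were the genes whose array name was Abca to Abcg followed by a number, with 1 such gene left out, 49 genes out of 34298 gene names, and each was read at its brightest probe, the one with the highest mean over the 6 arrays. The labels number the mice 1, 2 and 4 in each tissue, which was read as the same 3 mice. Organoids were taken at passage 0 and labelled as controls. The methods name C57BL/6 females as the wild-type mice, and the labels give no age. Culture lasted 8 days for 5 samples and 7 days for the stomach organoids of mouse 4. The culture methods give esophageal organoids a medium with forskolin and without WNT3A and R-spondin1. They give stomach organoids, grown from isolated corpus glands, a medium conditioned with WNT3A and R-spondin1 and with gastrin. Neither the array methods nor the labels name the medium, and the paper also cultured esophageal organoids with WNT3A and R-spondin1. Where those culture media were used, tissue and medium cannot be told apart in any comparison below.

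ABC transporters bind and hydrolyse ATP to move lipids, bile salts, drugs, organic anions, porphyrins and peptides across membranes, and a few members regulate potassium channels or act in translation without crossing a membrane. In epithelia, the membrane face on which a transporter sits decides whether its substrate is passed to the lumen or to the blood. ABCC proteins carry organic anions and conjugates, ABCB1 is the P-glycoprotein of drug resistance, ABCA and several ABCG proteins handle lipids and sterols, and ABCD proteins serve the peroxisome.

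The labels of the arrays were checked against epithelial markers. All 6 squamous markers (*Krt5*, *Krt14*, *Krt13*, *Krt4*, *Col17a1* and *Dsg3*) were higher in esophageal organoids and all 6 columnar markers (*Krt8*, *Krt18*, *Krt19*, *Krt20*, *Cldn18* and *Gkn1*) were higher in stomach organoids. None of the 8 fibroblast and smooth muscle, 6 immune, 5 endothelial and pericyte or 4 erythroid markers passed the test between tissues. The immune markers *Ptprc* and *Lyz2*, the endothelial *Cdh5* and the pericyte *Rgs5* were never well above background, whereas the immune *Cd68*, *Csf1r* and *Cd3e*, the endothelial *Pecam1* and *Kdr* and the smooth muscle *Acta2* were above background on all 6 arrays. A probe counted as above background on an array where the scanner software marked any of its spots so. *Acta2* measured 4.93, 6.69 and 4.97 in esophageal and 4.95, 4.74 and 4.96 in stomach organoids. Except on the esophagus array of mouse 2, this was near the level of *Ptprc*, at 4.4 to 4.91. Between 45.5% and 51.1% of the spots of an array were well above background and no spot was saturated.

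Of the 49 members, 31 exceeded background clearly in 1 tissue or both on all its 3 arrays, 28 of them on all 6 arrays, 13 on no array and 5 on some arrays but on all 3 of neither tissue. With limma and Benjamini-Hochberg adjustment over all probes (called at an adjusted p under 0.05), 11 of the 49 members differed between the tissues, which is 22.4%, against 14.9% of all gene names. Higher values in stomach organoids were called for 9 members and higher values in esophageal organoids for 2, against 7.7% and 7.15% of all gene names in these directions. Among members with a mean log2 value of at least 6, a limit chosen after the values were seen, 9 of 29 or 31% were called, against 26.4% of all gene names above that limit and the members' share stood closer to the background there. The median difference of the 49 members, esophagus minus stomach, was 0 on the log2 scale, beside 0.03 for all gene names. In 23 of 49 members, or 46.9%, the 3 values of one tissue did not overlap those of the other, against 31.6% of all gene names. The methods give a p under 0.05 and a 1.5-fold change as threshold without saying whether p was adjusted, and with the unadjusted p 20 of 49 members passed, or 40.8%, against 21.7% of all gene names. All values below are the authors' log2 values, and in whole organoids fewer cells of a type and less RNA per cell cannot be told apart.

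**Figure D1:**
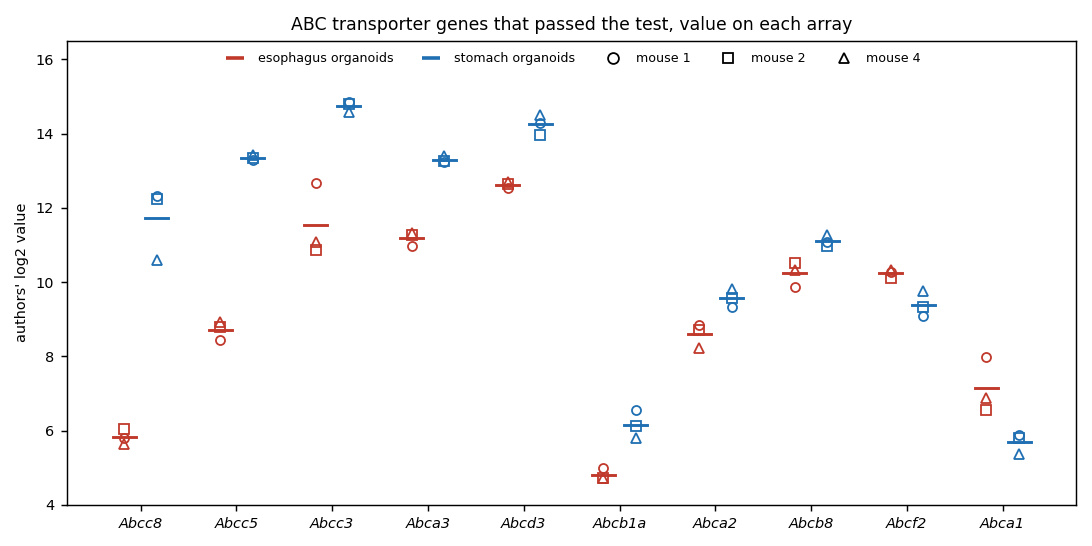
The log2 value (vertical axis) of 10 of the 11 called ABC transporter genes on each array, with red for esophageal and blue for stomach organoids, a symbol for each mouse and a line at the mean of 3 arrays. *Abcc8* and *Abcc5* show the widest gaps between the tissues, and *Abcf2* and *Abca1*, at the right, are the pair that was higher in esophageal organoids.

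The members with the greatest differences belonged to the ABCC subfamily and were higher in stomach organoids. *Abcc5* encodes an exporter of cyclic nucleotides and glutamate conjugates. Its values were 8.44, 8.79 and 8.93 in esophageal organoids of mice 1, 2 and 4 and 13.30, 13.34 and 13.42 in stomach organoids. The tissues were far apart and each varied little, with SDs of 0.25 and 0.07 (n = 3 each). The difference, esophagus minus stomach, was -4.63 ± 0.17 (SE), a 24.8-fold higher signal in stomach organoids, at a limma adjusted p of 1.69e-06.

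All 4 *Abcc5* probes passed the test in the same direction. They lie along the gene on the minus strand of chromosome 16 in mm9, at chr16:20404654-20404713, chr16:20400837-20400896, chr16:20392789-20392848 and chr16:20331568-20331627 in the direction of transcription. In that order the differences were -2.53, -3.12, -3.77 and -4.63. The first of them never rose well above background in esophageal organoids, so its bound is a signal at least 5.76-fold higher in stomach organoids, and the second was above background on 1 esophagus array. The probe sequences are shown because their agreement carries the result for this gene. The first and the third are printed whole and the other pair by their first 30 bases, in lower case throughout.
*Abcc5*, chr16:20404654-20404713: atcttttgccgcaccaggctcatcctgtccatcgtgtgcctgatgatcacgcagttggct
*Abcc5*, chr16:20400837-20400896: gctctttgaacatggtatctttaaatatat
*Abcc5*, chr16:20392789-20392848: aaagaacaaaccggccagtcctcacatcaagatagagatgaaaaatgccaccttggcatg
*Abcc5*, chr16:20331568-20331627: gtagaagttttttgtactgtaaagagacct
None of these 60-base probes shared a stretch of 20 bases with a probe of another gene on the array.

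*Abcc3*, a basolateral exporter of glucuronides and bile acids, was also higher in stomach organoids. It measured 12.67, 10.86 and 11.08 in esophageal organoids and 14.84, 14.79 and 14.58 in stomach organoids. The esophageal organoids of mouse 1 stood above those of mice 2 and 4, and still below every stomach array. The difference was -3.20 ± 0.44 (SE), or 9.21-fold, at an adjusted p of 0.00234, and leaving out single arrays moved it between -3.77 and -2.87.

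The P-glycoproteins are encoded in the mouse by *Abcb1a* and *Abcb1b*, neighbours on chromosome 5 that export lipophilic drugs. *Abcb1a* measured 5.0, 4.72 and 4.71 in esophageal organoids, where it was never well above background, and 6.54, 6.12 and 5.81 in stomach organoids. Its difference was -1.34 ± 0.21 (SE; adjusted p = 0.00486), which as a bound is a signal at least 2.53-fold higher in stomach organoids. The size depended on the processing, with -0.76 at a normexp offset of 50 (adjusted p = 0.0224) and -3.56 with 75th percentile scaling (adjusted p = 0.000386). *Abcb1b* was well above background on all 6 arrays, at 9.67, 7.98 and 8.38 in esophageal and 8.32, 7.88 and 7.91 in stomach organoids. Its tissues overlapped and the difference of 0.64 (95% confidence interval -0.30 to 1.58, adjusted p = 0.411) did not pass. Whether the paralogs differed in their response was not tested. The probes of the pair shared no stretch of 20 bases, and the first 30 of their 60 bases are shown because such close paralogs could otherwise be confused.
*Abcb1a*, chr5:8748075-8748134 (mm9, plus strand): actcagacatgggcacctgagttcagatcc
*Abcb1b*, chr5:8865925-8865984 (mm9, plus strand): tccaggctggagcaaagcgctcatgagctg

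The 9 other genes of the group that exports drugs and organic anions did not pass the test. *Abcc1*, the glutathione conjugate and leukotriene exporter, had a difference of 0.69 (adjusted p = 0.0646) with no overlap between tissues, and it passed without the stomach array of mouse 4 (0.87, adjusted p = 0.0162). *Abcc6*, whose loss causes ectopic calcification, had -0.86 (adjusted p = 0.153) and passed without the esophagus array of mouse 2 (-1.21, adjusted p = 0.0282). *Abcg2*, the breast cancer resistance protein, had -0.70 (adjusted p = 0.104) and passed with 75th percentile scaling (-1.30, adjusted p = 0.0327). *Abcc10* had -0.66 (adjusted p = 0.149). *Abcc4*, an exporter of cyclic nucleotides like *Abcc5*, was well above background on all 6 arrays with a difference of -0.16 (adjusted p = 0.823). *Abcb5*, *Abcc12* and *Abcg3* were never well above background.

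Among the 2 regulatory subunits of ATP-sensitive potassium channels, *Abcc8*, the sulphonylurea receptor of pancreatic beta cells, had the greatest difference of all members. It measured 5.81, 6.03 and 5.63 in esophageal organoids and 12.33, 12.25 and 10.60 in stomach organoids. The stomach organoids of mouse 4, harvested a day earlier than the rest, were the lowest of their tissue, yet far above every esophagus array. The difference was -5.90 ± 0.44 (SE), 59.9-fold, at an adjusted p of 8.49e-05, and without single arrays it ranged from -6.47 to -5.60. With a normexp offset of 50 the difference was -5.18 (adjusted p = 0.00194), and with 75th percentile scaling -6.67 (adjusted p = 1.2e-05). A second probe measured 5.25, 5.08 and 5.12 in esophageal organoids, not well above background, and 12.64, 12.47 and 10.64 in stomach organoids, a signal at least 109-fold higher. The 2 probes overlap by 47 bases and are therefore nearly the same measurement, as their first 30 bases show.
*Abcc8*, brightest probe, chr7:53359921-53359980 (mm9, minus strand): agcgtgccgccccgcacctcacttgcttgc
*Abcc8*, second probe, chr7:53359908-53359967 (mm9, minus strand): gcacctcacttgcttgcctagtgtttcgta
*Abcc9*, the sulphonylurea receptor of heart and smooth muscle, was never well above background, at 4.84 to 5.31 in esophageal and 4.70 to 4.92 in stomach organoids.

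The pore subunits that join these receptors were read beside them. *Kcnj11*, the usual partner of *Abcc8*, measured 5.15, 4.99 and 4.77 in esophageal organoids, never well above background, and 5.76, 6.01 and 5.42 in stomach organoids. By the means it was 1.69-fold higher there (-0.75 ± 0.20, SE; 95% confidence interval -1.21 to -0.30, adjusted p = 0.0455). *Kcnj8* was never well above background. Because *Abcc8* is known from endocrine cells, 12 enteroendocrine genes, listed after the values of *Abcc8* had been seen, were read beside it. *Isl1*, a transcription factor of endocrine and other cells, was higher in stomach organoids, at 9.61, 9.45 and 9.74 against 5.37, 5.19 and 4.97 (adjusted p = 1.99e-06), and it was the only one of the 12 that passed. *Gast*, *Hdc*, *Tph1*, *Neurod1*, *Pax6* and *Scg2* were on no array well above background. The hormone gene *Sst* was marked above it on 2 esophagus arrays and 1 stomach array, at only 4.7 to 4.92 over all arrays. *Syp* and *Ghrl* were above background on all 6 arrays and did not pass. *Chga* was above background on 1 stomach array, and measured 5.05, 5.19 and 6.69 in stomach organoids of mice 1, 2 and 4. *Chgb* was likewise above background on 1 stomach array, at 4.97, 4.87 and 5.85, and *Abcc8* was lowest in mouse 4. The summed level of the 12 genes was 9.88 to 10.31 on the esophagus arrays and 10.69, 10.61 and 11.00 on the stomach arrays of mice 1, 2 and 4. *Syp*, at 9.03 to 9.83 over all arrays, and in stomach organoids *Isl1* make up most of this sum, so it adds little to the values of these genes. The part of endocrine cells in the *Abcc8* result was not tested beyond these values.

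**Figure D2:**
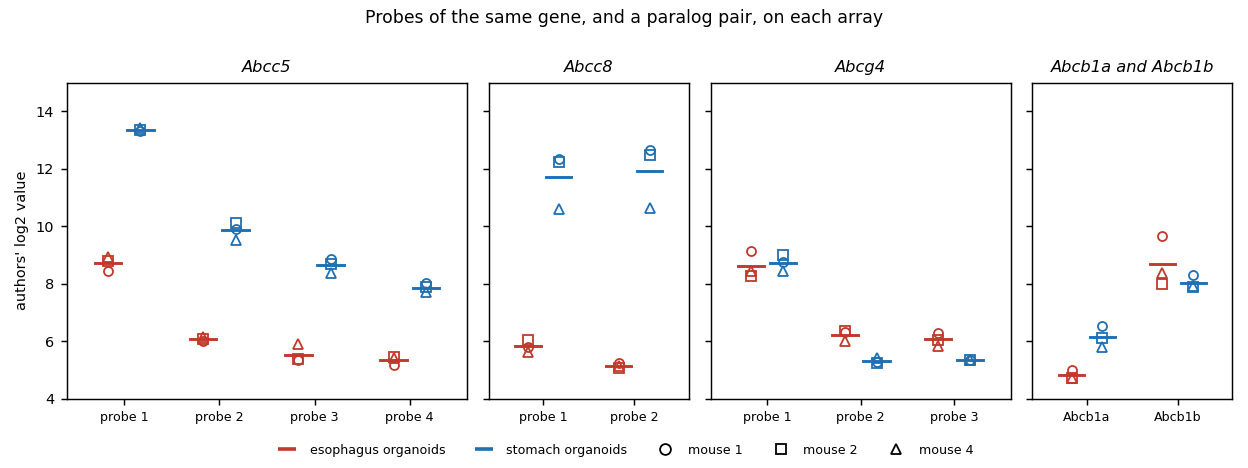
The log2 value (vertical axis) on each array of every probe of *Abcc5*, *Abcc8* and *Abcg4*, numbered from the brightest, and of the brightest probes of *Abcb1a* and *Abcb1b*, with red for esophageal and blue for stomach organoids, a symbol for each mouse and a line at the mean. All probes of *Abcc5* and *Abcc8* are higher in stomach organoids, the brightest *Abcg4* probe differs from the other 2, and *Abcb1b* overlaps between tissues where *Abcb1a* does not.

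The lipid transporters that passed went in both directions. *Abca3*, which loads phospholipid into the lamellar bodies of the lung, measured 10.98, 11.27 and 11.31 in esophageal and 13.24, 13.25 and 13.39 in stomach organoids. The SDs were 0.18 and 0.08 (n = 3 each), and the difference was -2.11 ± 0.15 (SE), or 4.32-fold, at an adjusted p of 7.85e-05. *Abca2*, an endolysosomal lipid transporter, was lower in every esophagus array than in any stomach array (8.21 to 8.85 against 9.33 to 9.81), with a difference of -0.97 ± 0.22 (SE; adjusted p = 0.0246). Its call was lost in the fit paired by mouse (adjusted p = 0.0652), and without the esophagus array of mouse 2 (0.0557), the stomach array of mouse 2 (0.0923) or that of mouse 4 (0.0607).

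In the opposite direction, *Abca1*, which passes cholesterol and phospholipid to apolipoprotein A-I, measured 7.99, 6.55 and 6.87 in esophageal organoids and 5.87, 5.81 and 5.38 in stomach organoids. The tissues did not overlap, with the esophageal organoids of mouse 1 highest. Its difference was 1.45 ± 0.36 (SE), or 2.73-fold, at an adjusted p of 0.0376. Leaving out the esophagus array of mouse 4 (adjusted p = 0.052) or the stomach array of mouse 1 (0.102), mouse 2 (0.111) or mouse 4 (0.0929) ended the call, with differences of 1.58, 1.54, 1.51 and 1.29. The acceptor gene *Apoa1* moved the other way, at 4.66, 4.71 and 4.71 in esophageal organoids, never above background, and 9.39, 10.68 and 10.01 in stomach organoids, at least 40.4-fold higher (adjusted p = 1.82e-05). *Apoe*, the other acceptor gene on the partner list, had a difference in the direction of *Abca1* and did not pass (0.92, adjusted p = 0.0516). It measured 8.72, 8.86 and 7.97 in esophageal and 7.47, 7.55 and 7.77 in stomach organoids. *Lcat*, whose product esterifies the exported cholesterol, was higher in esophageal organoids by at least 2.09-fold (adjusted p = 0.00456).

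The other sterol transporters did not pass. *Abcg1*, which moves cholesterol to high-density lipoprotein, varied more within a tissue than between the tissue means, at 9.65, 9.50 and 6.10 in esophageal and 8.52, 8.62 and 7.17 in stomach organoids. The arrays of mouse 4 were the lowest of both tissues. Its difference was 0.31 ± 0.91 (SE; adjusted p = 0.892) and became 1.47 (adjusted p = 0.079) without the esophagus array of mouse 4, -0.30 without that of mouse 1, -0.23 without that of mouse 2 and -0.16 without the stomach array of mouse 4. *Abca7*, a phospholipid exporter, had a difference of 0.00 ± 0.35 (SE; adjusted p = 0.998) and overlapping tissues.

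*Abcg4*, a close relative of *Abcg1* found mainly in nerve cells, gave values that depended on the probe. At its brightest probe the difference was -0.11 (adjusted p = 0.869). At both dimmer probes the gene was higher in esophageal organoids, by 0.92 (adjusted p = 0.00717) and 0.72 (adjusted p = 0.0249), with no stomach array well above background and bounds of at least 1.89-fold and 1.64-fold. These 2 probes overlap by 44 bases and are nearly the same measurement. The brightest *Abcg4* probe was also the only one of the 73 member probes that shared 20 bases with a probe of another gene, *Lemd1*, and the part of this in its signal was not tested.

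*Abcg5* and *Abcg8* encode the paired subunits of the exporter of plant sterols and cholesterol and lie head to head on chromosome 17. *Abcg5* was above background on 1 stomach array, at 4.55, 4.95 and 4.83 in esophageal and 5.31, 5.52 and 5.29 in stomach organoids (-0.60, adjusted p = 0.058). It passed with 75th percentile scaling (-1.85, adjusted p = 0.0135), when the probes of every gene were averaged before the adjustment (adjusted p = 0.0434) and with trended robust variances (adjusted p = 0.0367). *Abcg8* was never above background, at 4.80, 4.80 and 5.30 against 4.56, 4.24 and 4.56 (0.52, adjusted p = 0.147). The stretch between their start sites in RefSeq, 109 bases at chr17:84683012-84683120 (GRCm38.p6, plus strand, towards *Abcg8*), is shown because it serves both genes. Capitals mark the GATA core AGATAA and the TATA box TATAAA on the other strand.
*Abcg5*-*Abcg8*: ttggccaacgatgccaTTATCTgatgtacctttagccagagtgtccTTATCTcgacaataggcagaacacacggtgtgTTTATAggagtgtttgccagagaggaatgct

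Of the remaining ABCA genes, *Abca17* had a difference of 1.37 at an adjusted p of 0.0539 and passed without the esophagus array of mouse 1 (1.74, adjusted p = 0.0115), with dim probes left out (adjusted p = 0.0338) and with trended robust variances (adjusted p = 0.0332). As the mean of its probes it had 0.61 (adjusted p = 0.168), and without the esophagus array of mouse 2 it had 1.01 (adjusted p = 0.124). Its dimmer probe, never well above background, had -0.14 (adjusted p = 0.668). *Abca5*, a lysosomal lipid transporter, had -0.59 at its brightest probe (adjusted p = 0.242), which passed without the stomach array of mouse 2 (-0.89, adjusted p = 0.0442) and as the mean of its probes (-0.63, adjusted p = 0.0456), and -0.67 at a dimmer probe that passed (adjusted p = 0.024). The paralogs *Abca8a* and *Abca8b* were near background, at 4.42, 4.63 and 4.53 against 4.69, 4.79 and 4.43, and at 5.0, 5.11 and 5.67 against 4.95, 4.95 and 4.90. *Abca8b* exceeded background on 1 esophagus array. *Abca4*, *Abca6*, *Abca14*, *Abca15* and *Abca16* were never well above background.

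**Figure D3:**
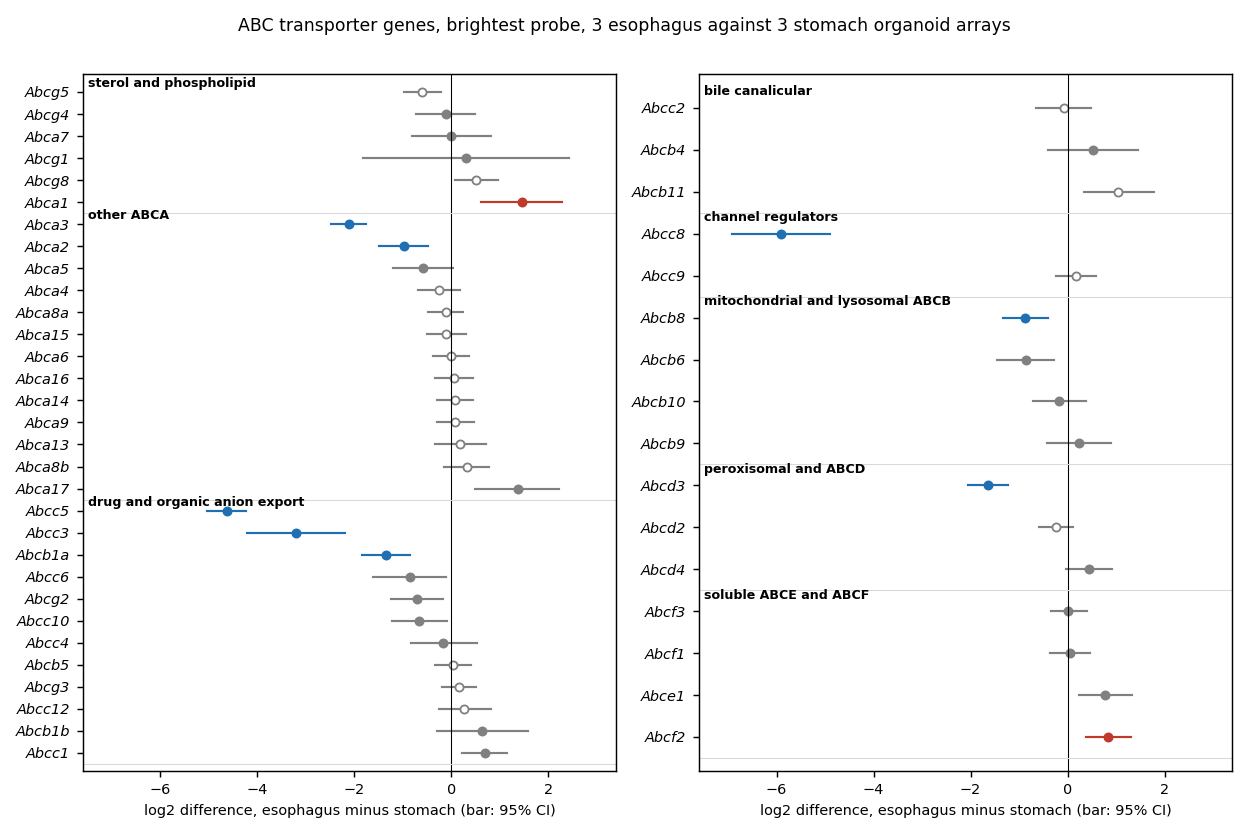
The log2 difference, esophagus minus stomach (horizontal axis), of the ABC transporter genes reported by name, grouped by role, with a bar for the 95% confidence interval. Blue marks genes called higher in stomach and red the 2 called higher in esophageal organoids, grey the rest, and an open circle a gene that was not well above background on all 3 arrays of either tissue.

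ABCD proteins mostly feed the peroxisome. *Abcd3*, which imports branched chain fatty acids and bile acid precursors, measured 12.54, 12.63 and 12.69 in esophageal and 14.29, 13.97 and 14.51 in stomach organoids. It was higher in stomach organoids, with values tight in both tissues, and the difference was -1.64 ± 0.18 (SE), or 3.12-fold, at an adjusted p of 0.000648. *Abcd2* was never above background. *Abcd4*, which sends cobalamin out of the lysosome, had 0.45 (adjusted p = 0.236), and its chaperone gene *Lmbrd1* was lower in esophageal organoids (-0.93, adjusted p = 0.0128). The genes *Pex3* and *Pex19*, which insert proteins into the peroxisomal membrane, had differences of 0.08 and -0.17 and did not pass.

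Among mitochondrial and lysosomal ABCB genes, *Abcb8* of the mitochondrial inner membrane was higher in stomach organoids, at 10.97 to 11.27 against 9.87 to 10.52 (-0.87 ± 0.20, SE; adjusted p = 0.028). That call ended when any array except the esophagus array of mouse 2 was left out, with adjusted p-values of 0.0507 to 0.0997. The call was also lost as the mean of its probes (-0.49, adjusted p = 0.132) and with 75th percentile scaling (-0.71, adjusted p = 0.256). A dimmer *Abcb8* probe had -0.73 and did not pass (adjusted p = 0.132), and another was never well above background (0.13, adjusted p = 0.723). *Abcb6*, a porphyrin transporter, had -0.86 (adjusted p = 0.0719) and passed in the fit paired by mouse (0.0426) and without the esophagus array of mouse 4 (-1.04, adjusted p = 0.0432). *Abcb10* and *Abcb9* had differences of -0.17 and 0.23 and did not pass. The haem synthesis genes *Alas1* (-0.99, adjusted p = 0.0663) and *Fech* (-0.38, adjusted p = 0.231) did not pass either.

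The soluble members, which act on ribosomes, were well above background on all 6 arrays. *Abcf2* was higher in esophageal organoids, at 10.10 to 10.33 against 9.09 to 9.76 (0.84 ± 0.20, SE; adjusted p = 0.0315). Leaving out any array but the stomach array of mouse 4 ended this call, with adjusted p-values of 0.0635 to 0.121. *Abce1*, which recycles ribosomes, measured 12.85, 12.45 and 13.15 in esophageal and 11.95, 11.76 and 12.40 in stomach organoids. It had a difference of 0.78 (adjusted p = 0.0808) and passed in the fit paired by mouse (0.0323) and without the stomach array of mouse 4 (0.96, adjusted p = 0.0413). *Abcf1* and *Abcf3* had differences of 0.05 and 0.02. With *Abcd3* and *Abcc3*, *Abce1* was among the 3 members with the brightest probes, a ranking of probes and not of transcripts.

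None of the 3 bile canalicular transporters passed the test. *Abcb11*, the bile salt export pump, was above background on 2 esophagus arrays and no stomach array, with 5.56, 6.47 and 5.17 against 4.80, 4.56 and 4.70 (1.05, adjusted p = 0.0732). It passed without the esophagus array of mouse 4 (1.33, adjusted p = 0.023), with 75th percentile scaling (2.76, adjusted p = 0.0202) and with trended robust variances (adjusted p = 0.0393). The difference of *Abcb11* fell to 0.68 without the esophagus array of mouse 2 (adjusted p = 0.0895) and to 0.57 with a normexp offset of 50 (adjusted p = 0.179). *Abcb4*, a phosphatidylcholine flippase, had 0.53 (adjusted p = 0.512). *Abcc2*, the apical exporter of conjugates, was never above background.

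Of 34 genes that work with or regulate ABC transporters, 12 passed the test (35.3%), against 14.9% of all gene names. Higher values were called in esophageal organoids for 4 and in stomach organoids for 8. The share was 26.4% for gene names with a mean log2 value of at least 6, a limit the 34 genes were not held to. *Nr1i2*, *Lcat* and *Kcnj11*, which passed, lay below that limit (5.93, 5.58 and 5.35), as did *Kcnj8* and *Pdzk1*, which did not pass. The 35.3% and the 26.4% therefore cover genes of unlike brightness. *Nr1h4*, the bile acid receptor FXR, was at least 6.26-fold higher in stomach organoids (-2.65 ± 0.16, SE; adjusted p = 2.74e-05). *Nr1i2*, the xenobiotic receptor PXR, was at least 5.26-fold higher there (-2.44 ± 0.31, SE; adjusted p = 0.00176). Neither rose well above background in esophageal organoids. *Nr1h3*, the sterol receptor LXR alpha, was lower in esophageal organoids, at 5.84, 6.18 and 6.83 against 8.34, 8.09 and 7.46 (-1.68 ± 0.31, SE; adjusted p = 0.0105), while its relative *Nr1h2* had a difference of 0.01.

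*Cftr*, the ABC protein that works as a chloride channel and falls outside the naming rule, was higher in stomach organoids, at 8.65, 8.62 and 8.64 against 6.70, 7.01 and 6.79 (-1.80 ± 0.15, SE; adjusted p = 0.000139). The peptide transporters *Tap1* and *Tap2* did not pass, with -0.14 and -0.74. The listed genes of proteins that anchor transporters to the actin cortex went both ways where they passed, and were not tested as a group. *Pdzk1* among them did not pass (0.28, adjusted p = 0.399). *Msn* (2.89, adjusted p = 0.000636), *Rdx* (2.20, adjusted p = 0.000141) and *Slc9a3r1* (1.03, adjusted p = 0.0126) were higher in esophageal organoids and *Ezr* (-1.13, adjusted p = 0.0114) in stomach organoids.

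**Figure D4:**
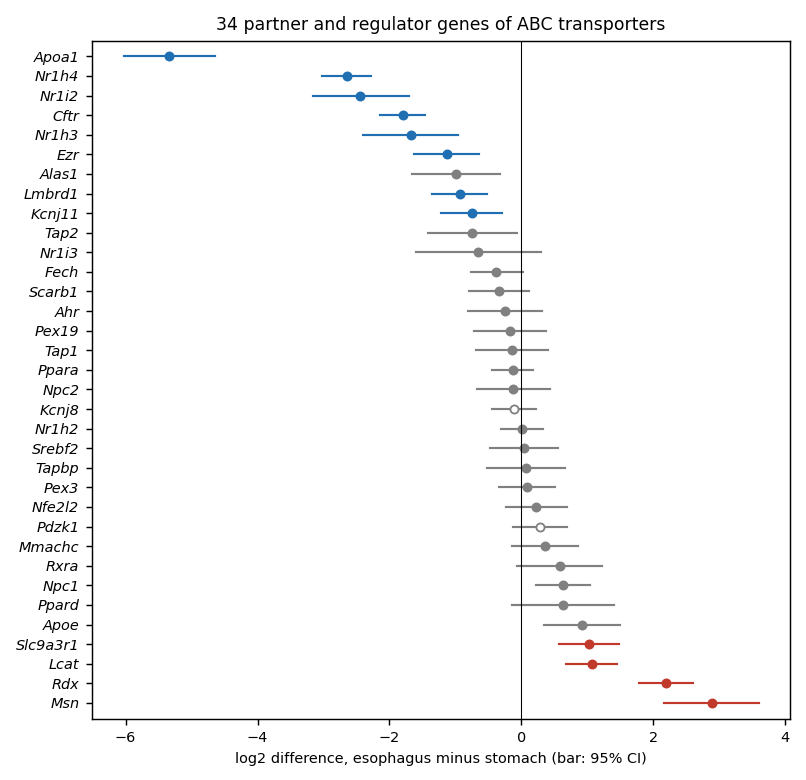
The log2 difference, esophagus minus stomach (horizontal axis), of 34 genes that work with or regulate ABC transporters, with a bar for the 95% confidence interval. Blue marks the 8 genes called higher in stomach organoids, from *Apoa1* at the top, red the 4 called higher in esophageal organoids, down to *Msn*, grey the rest, and an open circle a gene not well above background on all 3 arrays of either tissue.

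Promoters of members that moved were read from a set of windows at RefSeq starts (GRCm38.p6), which held 44 windows for 37 of the 49 genes. *Abcc8* and *Abcc3* had no window in this set, so their promoters are not printed. The 250 bases before the start are printed for *Abcc5*, *Abca3* and *Abcb1a*, higher in stomach organoids, and for *Abca1*, higher in esophageal organoids. Capitals mark any of 6 motifs searched on both strands, the GC box GGGCGG, the TATA box TATAAA, the CCAAT box CCAAT, the forkhead core TGTTTAC, the GATA core AGATAA and the HNF4 core CAAAGTCCA.
*Abcc5*, chr16:20426395-20426644, minus strand: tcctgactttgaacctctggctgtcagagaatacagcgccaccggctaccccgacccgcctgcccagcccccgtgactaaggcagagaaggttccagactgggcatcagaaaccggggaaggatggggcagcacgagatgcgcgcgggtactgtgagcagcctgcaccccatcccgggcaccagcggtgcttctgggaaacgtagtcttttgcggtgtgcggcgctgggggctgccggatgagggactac
*Abca3*, chr17:24351773-24352022, plus strand: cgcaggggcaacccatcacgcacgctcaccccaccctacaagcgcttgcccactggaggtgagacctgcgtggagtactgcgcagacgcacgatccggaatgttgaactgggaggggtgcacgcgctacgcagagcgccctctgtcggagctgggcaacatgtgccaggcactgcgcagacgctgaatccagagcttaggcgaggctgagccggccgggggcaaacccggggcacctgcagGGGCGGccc
*Abcb1a*, chr5:8566841-8567090, plus strand: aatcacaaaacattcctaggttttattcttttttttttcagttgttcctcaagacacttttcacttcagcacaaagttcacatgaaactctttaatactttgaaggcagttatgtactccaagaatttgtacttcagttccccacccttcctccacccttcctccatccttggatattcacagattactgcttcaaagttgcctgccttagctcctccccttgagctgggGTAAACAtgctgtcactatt
*Abca1*, chr4:53159896-53160145, minus strand: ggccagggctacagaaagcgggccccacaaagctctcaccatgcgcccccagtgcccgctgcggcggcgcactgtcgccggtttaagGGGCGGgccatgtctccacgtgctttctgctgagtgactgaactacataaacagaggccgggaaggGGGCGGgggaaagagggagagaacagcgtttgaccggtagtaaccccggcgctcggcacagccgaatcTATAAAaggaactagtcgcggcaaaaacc

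The windows differed in base composition. *Abcc5*, *Abca3* and *Abca1* held 17, 21 and 20 CpG dinucleotides, more than 76.5%, 83.7% and 82.1% of the 32851 windows in the table, and *Abcb1a* held none. *Abca1* had GC boxes that began 163 and 97 bases before the start and a TATA box that began 29 bases before it. *Abca3* had 1 GC box and *Abcb1a* 1 forkhead core on the other strand. The GC box was found in 32.7% of all windows and 45.5% of the members' 44 windows, the TATA box in 12.4% and 11.4%, the forkhead core in 3.17% and 2.27%, the GATA core in 9.99% and 11.4%, the CCAAT box in 33.8% and 29.5% and the HNF4 core in 0.384% and none. A match of letters is a description and not a binding site.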

How the data were processed

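RNA of organoids was hybridized by the authors to single-color Agilent 8x60K mouse arrays. The deposited scanner files hold spot intensity and background intensity values and flags, read in Feature Extraction, of which the files name version 11.5.1.1. The deposited log2 values were background corrected and quantile normalized by the authors. Median intensities corrected by normexp (offset 15) and quantile normalized rebuilt them to a median difference of 0.00433, and the 2029 empty cells were the spots marked as outliers. The offset compresses differences of dim probes. The main fit used all 6 arrays with no value imputed, and no member had an empty cell.

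In R 4.3.3 with limma 3.58.1, log2 values were averaged over the spots of each of 55681 probes, and lmFit and eBayes compared 3 esophagus with 3 stomach arrays without a block. P-values were adjusted over all probes, and the brightest probe of a gene was read. The code was tested on simulated data. A probe that stayed near background on every array of a tissue gave a bound ("at least"). The bound was taken from the group means, with values of the dim tissue raised to the lowest flagged value of their array. It is not a confidence limit, and smaller folds can lie within the confidence interval. The number of arrays limits the precision. Coordinates of probes are those of the files (mm9). All 49 gene names are RefSeq symbols, and some genes of the family are not reported here, of which 2 stay in the counts.

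Members, roles, partner genes and markers were chosen with earlier results of these data known. Members were given on every array when called, 2-fold changed and above background, or when in one of 4 paralog pairs or among the 3 brightest, and the other names were added after their values were seen. The labels carry the same mouse numbers in both tissues, so the arrays can be read as paired by animal. The main fit left this pairing out, and the mouse entered as a block in an alternative only. The methods do not state that both tissues came from the same mice. Over probes, residuals from the tissue means correlated between the 2 arrays of one mouse number with r of 0.025, 0.012 and -0.0079, against -0.073 to 0.04 for other pairs. The alternatives were other background corrections, 75th percentile scaling, kept outlier spots, dim probes left out, mean of probes, trended robust variances, mouse or slide as a block, other thresholds and each array left out. Slide 2 held the esophagus array of mouse 4 alone, so the slide block equals the fit within slide 1.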

Additional observations from a re-analysis of the deposited data

How the results depend on the processing

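Across 17 alternatives, 6 of the 11 calls (*Abcc8*, *Abcc5*, *Abcc3*, *Abca3*, *Abcd3* and *Abcb1a*) stayed past the threshold in each, 5 (among them *Abca1*, *Abca2*, *Abcb8* and *Abcf2*) were lost in at least 1, and none of the 11 changed sign. The members called numbered 20 at an unadjusted p under 0.05 and 1.5-fold (6 higher in esophageal and 14 in stomach organoids) and 7 at an added 2-fold minimum (1 and 6). The count higher in esophageal organoids was 1 with an offset of 50 (*Abcf2*), with 75th percentile scaling and within slide 1. In the last pair of settings *Abca1* and *Abcf2* were both lost and the gene called was *Abcb11*. Leaving out single arrays gave 7 to 10 members called, 0 to 3 higher in esophageal and 7 to 9 in stomach organoids, 8 to 14 partner genes and a median difference of the members from -0.07 to 0.03. The 7 members came without the stomach array of mouse 2, and no member was called higher in esophageal organoids without the stomach array of mouse 1 or of mouse 2. With 75th percentile scaling 10 members were called, 7 of the 11 among them. The median difference was then 0.19 for members and 0.20 for all gene names, so changes are relative to that shift, and it was -0.17 with dim probes left out, where 31 members remained. With the mouse as a replicate block in a paired fit, 12 members were called, 10 of the 11 among them, with *Abcb6* and *Abce1* gained and *Abca2* lost, and 13 partner genes. Apart from the changes that follow from fewer genes or arrays, the cause was not tested. Signal over background limits what these arrays can show for the 13 members never well above background and the 5 above it on some arrays.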
